A study of Mus musculus with 11 samples.

Results

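AP-1 is a family of dimeric transcription factors built from bZIP proteins, which hold DNA with a basic region and pair through a leucine zipper. The genes described here are 10 of its members: Fos, Fosb, Fosl1 and Fosl2 of the Fos family, Jun, Junb and Jund of the Jun family, and the related bZIP genes Atf3, Batf and Maff. They were taken by gene symbol, each through a probe set that carries that symbol alone, out of 19938 genes named this way. Each of the 10 had 1 such probe set, so no choice between probe sets was needed.

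Expression was measured in the whole pancreas of wild-type C57Bl6J mice with 1 Affymetrix array per sample. In the caerulein group (6 arrays), mice had received 9 intraperitoneal injections of caerulein at hourly intervals, which induces acute pancreatitis. Each dose is recorded as 50 mg/kg in the series text, and whether that unit is right was not checked. The control group (5 arrays) had received sodium chloride (NaCl), although the series text counts 4 control mice. The labels do not state age, sex or the time between the last injection and collection. They also do not state that every sample came from its own mouse, so the p-values reflect spread between samples that may be technical.

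Fos proteins do not pair with one another and bind DNA as partners of Jun proteins, whereas Jun proteins also pair among themselves. Fos, Fosb, Jun, Junb and Atf3 are classical immediate-early genes, whose transcripts appear quickly and briefly after a stimulus through mitogen-activated protein (MAP) kinases, serum response factor (SRF) and cAMP response element-binding proteins. BATF and the small Maf proteins, among them MAFF, lack an activation domain of their own. In the pancreas, caerulein acts on the cholecystokinin receptor of acinar cells, the cells that make digestive enzymes.

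The upstream sequences of 4 members are shown because these genes span the responses in these arrays, from the largest rise (Atf3) through Jun and Fos to a small fall (Fosb). Each runs 250 bases up to the base before the gene's start and comes from RefSeq, build GRCm38.p6. Capitals mark matches to the motifs named after the sequences.
Atf3, chr1:191183334-191183583, minus strand: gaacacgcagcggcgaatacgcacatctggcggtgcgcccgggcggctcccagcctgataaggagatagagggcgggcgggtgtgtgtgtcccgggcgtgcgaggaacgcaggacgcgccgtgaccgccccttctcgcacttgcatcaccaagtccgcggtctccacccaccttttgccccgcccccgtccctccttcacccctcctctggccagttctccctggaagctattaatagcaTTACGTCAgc
Jun, chr4:95052223-95052472, minus strand: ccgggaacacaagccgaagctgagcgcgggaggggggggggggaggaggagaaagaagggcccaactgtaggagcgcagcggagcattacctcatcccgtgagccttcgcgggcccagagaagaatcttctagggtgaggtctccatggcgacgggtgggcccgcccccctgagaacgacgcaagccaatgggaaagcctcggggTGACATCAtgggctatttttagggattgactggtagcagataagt
Fos, chr12:85473640-85473889, plus strand: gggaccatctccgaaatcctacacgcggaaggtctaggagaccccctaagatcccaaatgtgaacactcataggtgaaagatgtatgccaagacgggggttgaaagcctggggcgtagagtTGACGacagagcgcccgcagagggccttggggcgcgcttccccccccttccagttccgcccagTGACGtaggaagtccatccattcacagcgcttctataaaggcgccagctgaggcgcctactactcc
Fosb, chr7:19310046-19310295, minus strand: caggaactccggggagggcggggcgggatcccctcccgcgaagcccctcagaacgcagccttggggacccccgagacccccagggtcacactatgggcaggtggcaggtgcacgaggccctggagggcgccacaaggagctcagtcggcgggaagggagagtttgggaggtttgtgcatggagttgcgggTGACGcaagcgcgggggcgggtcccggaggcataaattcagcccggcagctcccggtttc

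Promoters were in the RefSeq table for 9 of the 10 members, with 11 starts in all because Maff has 3. Searched on both strands were TGACTCA (the AP-1 site, or TRE), TGACGTCA (the cAMP response element, or CRE), the CRE core TGACG, which lies inside the CRE, and the CArG box bound by SRF. Added were TGACATCA and TTACGTCA, which were read off the Jun and Atf3 promoters themselves, so their presence there is given by the choice. Bases are counted upstream from the gene's start. TTACGTCA lay at bases 10 to 3 before the Atf3 start, and among 32851 promoters of the same length 0.447% held it. TGACATCA lay at bases 45 to 38 before the Jun start and also at bases 45 to 38 before the third Maff start, and 2.93% of all promoters held it. Fos held the core at bases 129 to 125 and again at 66 to 62, Fosb at 60 to 56, Junb at 106 to 102 and Batf at 98 to 94. On the opposite strand it lay at bases 7 to 3 before the Atf3 start, inside TTACGTCA, and at 122 to 118 before the third Maff start. The core was in 17.8% of all promoters. The full CRE was found in 1 member window, at bases 29 to 22 before the second Maff start, where it holds the core on both strands, and in 1.55% of all promoters. No member window held the TRE (4.46% of all promoters) or a CArG box (1.47%). None of the motifs was in the windows of Fosl2, Jund and the first Maff start. Sites farther than 250 bases upstream were not searched, so absence from a window does not mean that a gene lacks the motif.

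Caerulein pancreas had higher transcript levels of 7 AP-1 genes and lower levels of 1. The rises ran from 18.3-fold for Atf3 to 1.27-fold for Junb, and Fosb was 1.18-fold lower. The 7 higher genes were Atf3, Jun, Jund, Fosl1, Fos, Maff and Junb. Fosl2 and Batf did not pass. A gene was called at an adjusted p under 0.05 in limma (Benjamini-Hochberg over all 35556 probe sets). Over all 35556 probe sets 44.2% were called, and over all named genes 20.3% were called higher and 34.3% lower by the same rule. In 5 members (Atf3, Jun, Jund, Fosl1 and Fos) all 6 caerulein arrays exceeded all 5 NaCl arrays, which held for 16.7% of named genes. At least 2-fold higher were Atf3, Jun and Jund, against 6.14% of named genes. The median of the 10 differences was 0.62 on the log2 scale, beside -0.13 over all named genes.

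**Figure D1:**
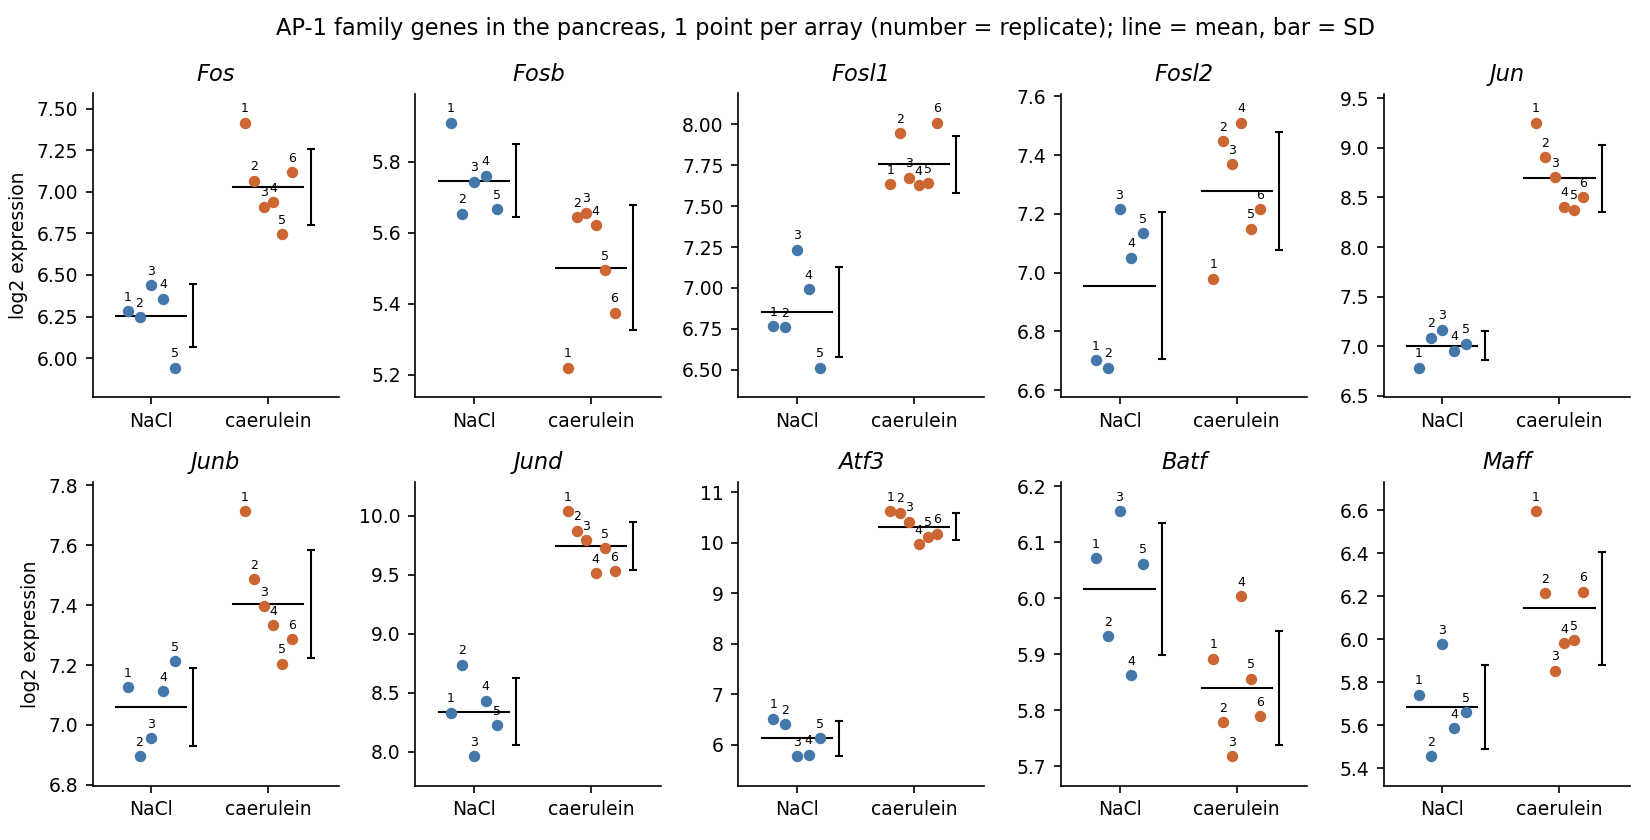
Log2 expression (vertical axes, a separate range for each gene) of the 10 AP-1 family genes on each NaCl (n = 5) and caerulein (n = 6) array, labelled with the replicate number; lines are group means and bars the SD. The groups do not overlap for Fos, Fosl1, Jun, Jund and Atf3, and they overlap for Fosb, Fosl2, Junb, Batf and Maff.

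These counts depend on how the arrays are scaled to one another. The 7 higher calls held with an equal 75th percentile of the arrays, beside 18.7% of named genes. After repeated quantile normalisation or cyclic loess 6 held, Junb being the one lost, beside 19.3% and 21.9% of named genes. With an equal mean of 12 commonly used reference genes, 3 members were higher (Atf3, Jun and Jund) and 4 lower (Fosb, Batf, Fosl2 and Junb), beside 5.96% and 86.5% of named genes. That scaling moved every difference down by 0.76, because the reference genes were themselves higher in caerulein on the deposited scale (7 of 12 called higher, 0 lower). Their differences were uneven, with Actb at 2.93, Ywhaz at 1.88 and Pgk1 at 1.65, a list median of 0.38, and Sdha lowest at -0.17. The mean therefore leans on a few strongly higher genes. This scaling brought the median of all named genes to -0.89. Differences below are on the deposited scale, where the zero line is set by the authors' normalisation.

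**Figure D2:**
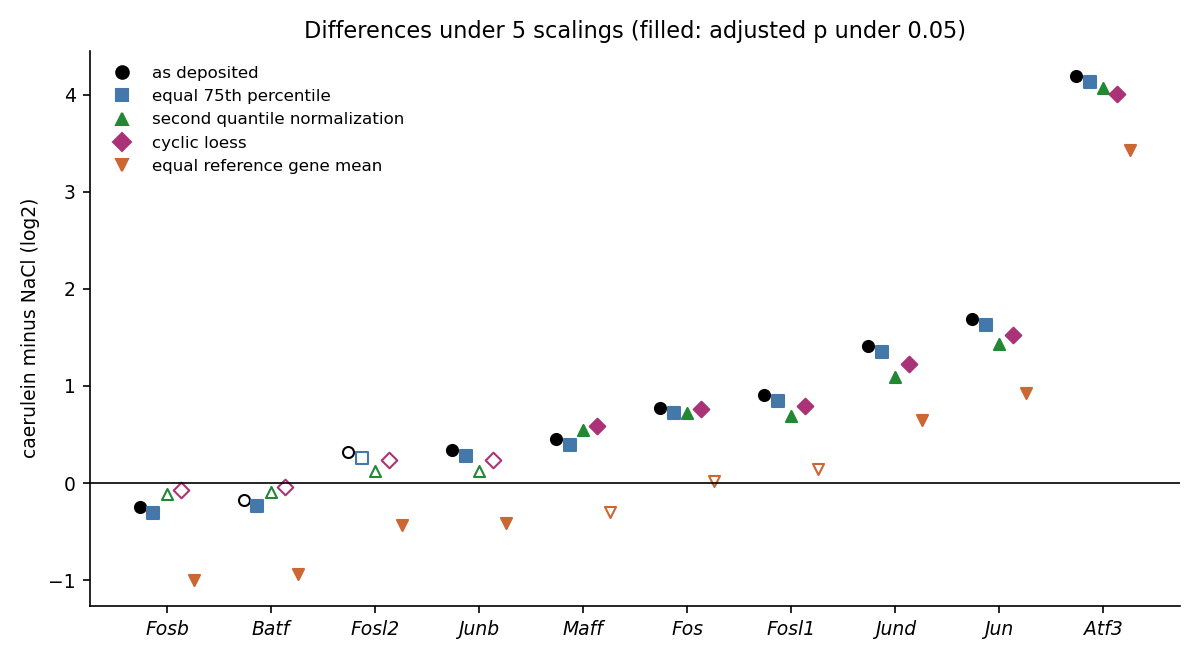
Caerulein minus NaCl (log2, vertical axis) for each member as deposited and under 4 rescalings; filled symbols have a limma adjusted p under 0.05. Atf3, Jun and Jund stay above 0 and filled in all 5, whereas Fosl2, Junb and Maff are above 0 in 4 and below 0 with an equal reference gene mean.

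Atf3 encodes a stress-induced bZIP factor of the ATF/CREB group that can pair with Jun proteins. Its log2 values in NaCl replicates 1 to 5 were 6.52, 6.41, 5.77, 5.80 and 6.13. In caerulein they ran from 9.97 through a median of 10.30 to 10.62. All 6 caerulein arrays lay far above the NaCl range. The means were 6.13 ± 0.34 (SD, n = 5) and 10.32 ± 0.27 (SD, n = 6), a difference of 4.19 (SE 0.16, limma adjusted p = 9.5e-10). This was the rank 10 rise among the 19938 named genes. With an equal reference gene mean it was 3.43.

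Jun encodes c-Jun, the founding partner of AP-1 dimers and a substrate of the JNK kinases. Log2 values were 6.78, 7.09, 7.17, 6.96 and 7.03 in NaCl replicates 1 to 5. The caerulein arrays spanned 8.38 to 9.25 with a median of 8.60. The groups did not overlap, and the caerulein arrays varied more (SD 0.34, n = 6) than the NaCl arrays (SD 0.15, n = 5), a contrast that was not tested. The difference was 1.69 (SE 0.15, limma adjusted p = 1.3e-06), or 3.22-fold, and 98.1% of named genes had a lower one.

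Jund encodes JunD, a Jun protein that many resting cells already contain. NaCl replicates 1 to 5 read 8.33, 8.74, 7.96, 8.43 and 8.23 on the log2 scale. Caerulein values ran from 9.51 through a median of 9.76 to 10.04, again without overlap. The rise was 1.41 (SE 0.13, limma adjusted p = 2.7e-06), or 2.65-fold.

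Junb encodes JunB, which can act against c-Jun at some promoters. Its NaCl values were 7.13, 6.90, 6.96, 7.11 and 7.21, and the caerulein arrays spanned 7.20 to 7.71 with a median of 7.36. The highest NaCl array (replicate 5) lay above the lowest caerulein array, and 5 of 6 caerulein arrays were above all NaCl arrays. The difference of 0.34 (SE 0.10, limma adjusted p = 0.011) was no longer called after repeated quantile normalisation (0.12, adjusted p = 0.35) or cyclic loess (0.24, adjusted p = 0.066), and it was -0.41 with an equal reference gene mean (adjusted p = 0.0058).

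Within the Jun family the rises were unequal. Per array, the log2 value of one member minus that of another cancels any shift of a whole array, so the equal reference gene mean and equal 75th percentiles leave it as it is. Jun minus Junb went from -0.06 ± 0.25 (SD, n = 5) in NaCl to 1.29 ± 0.17 (SD, n = 6) in caerulein, a change of 1.34 (two-sided exact permutation p = 0.0022, the smallest that the 462 assignments allow; 0.0039 after Benjamini-Hochberg over 9 pairs). Junb minus Jund changed by -1.06 with the same p-values in the exact permutation test. For Jun minus Jund the change was 0.28 (exact permutation p = 0.12, adjusted p = 0.13), and the arrays of the groups overlapped. Without NaCl replicate 3 that change was 0.41 and passed (exact permutation, adjusted p = 0.018). Jun and Jund thus each rose more than Junb, whereas a difference between their own rises passed or failed with 1 NaCl array.

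Fos encodes c-Fos, the best known immediate-early protein. Its log2 values were 6.28, 6.25, 6.44, 6.36 and 5.94 in NaCl replicates 1 to 5, and in caerulein they ran from 6.74 through a median of 7.00 to 7.41. The groups did not overlap, with caerulein replicate 1 the highest array. The difference was 0.78 (SE 0.12, limma adjusted p = 0.00019), or 1.71-fold. With an equal reference gene mean it was 0.02 (limma adjusted p = 0.88).

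Fosl1 encodes FRA-1, a Fos-related protein linked to migrating and transformed epithelial cells. NaCl replicates 1 to 5 read 6.77, 6.76, 7.23, 6.99 and 6.51 on the log2 scale, and the caerulein arrays 7.63 to 8.01 with a median of 7.66. Every caerulein array was above every NaCl array. The difference was 0.90 (SE 0.12, limma adjusted p = 7.7e-05), or 1.87-fold, and 0.15 with an equal reference gene mean (adjusted p = 0.30).

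Fosl2 encodes FRA-2, a second Fos-related protein. Its NaCl values were 6.70, 6.68, 7.22, 7.05 and 7.13, and the caerulein values ran from 6.98 through 7.29 to 7.51. NaCl replicates 1 and 2 were low and the other NaCl arrays fell among the caerulein arrays, 3 of which were above all NaCl arrays. The difference of 0.32 (95% interval 0.05 to 0.59) lay just outside the threshold (limma adjusted p = 0.051). The call was made without NaCl replicate 3 (adjusted p = 0.031), NaCl replicate 5 (adjusted p = 0.046) or caerulein replicate 1 (adjusted p = 0.025), with array quality weights (0.32, adjusted p = 0.045), and with the dimmer probe sets left out (adjusted p = 0.032). With an equal reference gene mean the difference was -0.43 (adjusted p = 0.012).

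Fosb encodes FosB, an immediate-early Fos protein whose short form persists in stimulated brain. Its values were 5.91, 5.65, 5.74, 5.76 and 5.67 in NaCl and 5.22 to 5.66 in caerulein, with a median of 5.56. Caerulein replicate 3 reached just into the NaCl range, and the other caerulein arrays, 5 of 6, lay below all NaCl arrays. The difference was -0.24 (SE 0.09, 95% interval -0.44 to -0.05, limma adjusted p = 0.042), which is 0.11 below the median of all named genes. It was not called after repeated quantile normalisation (-0.12, adjusted p = 0.36), after cyclic loess (-0.07, adjusted p = 0.60), with the replicate number as a block (adjusted p = 0.15), or without any 1 of NaCl replicates 1, 3 and 4 or caerulein replicates 1, 5 and 6 (adjusted p = 0.068 to 0.099).

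**Figure D3:**
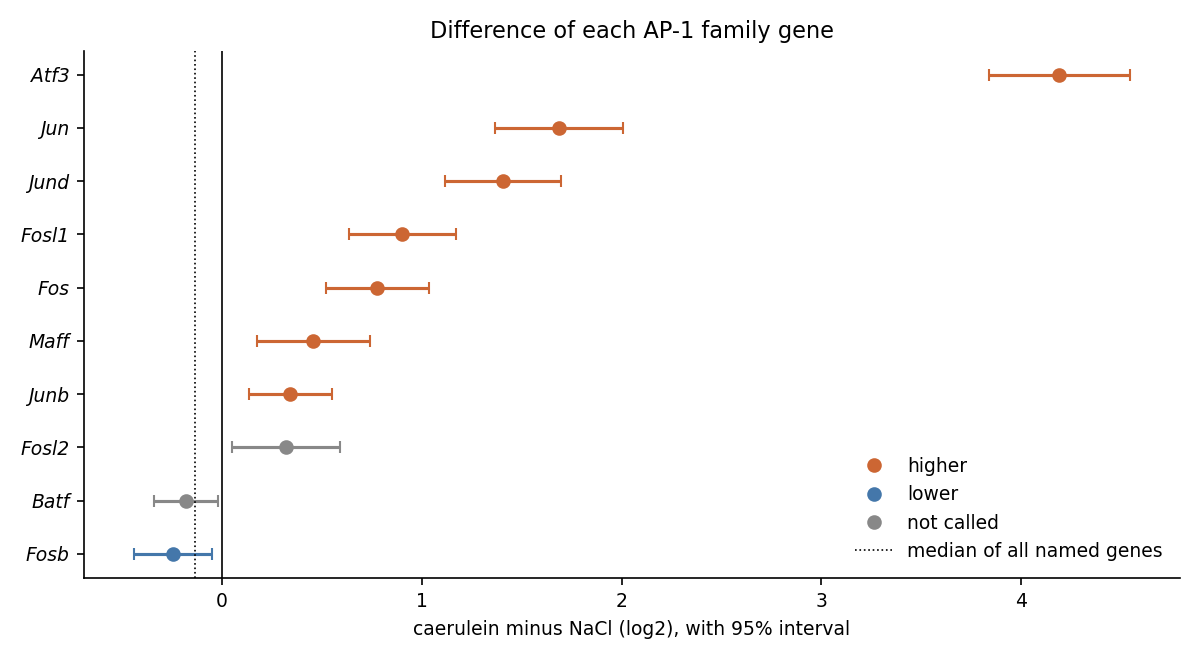
Caerulein minus NaCl (log2, horizontal axis) for each member with its 95% interval from limma; colours give the call and the dotted line the median of all named genes (-0.13). Atf3 stands at 4.19, Jun and Jund at 1.69 and 1.41, and the other 7 members between -0.24 and 0.90.

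The Fos family also moved unequally. Fos minus Fosb changed by 1.02 and Fosb minus Fosl1 by -1.15 (exact permutation p = 0.0022 each, adjusted p = 0.0039 over the 9 pairs), so Fos and Fosl1 each differed in their change from Fosb. Fosl1 minus Fosl2 changed by 0.58 (exact permutation p = 0.0043, adjusted p = 0.0065). Fos minus Fosl1 changed by -0.13 (exact permutation p = 0.36, adjusted p = 0.36), but by -0.23 without caerulein replicate 1, which passed (exact permutation, adjusted p = 0.031). Fos minus Fosl2 changed by 0.46 (exact permutation p = 0.043, adjusted p = 0.056). That pair passed after repeated quantile normalisation (0.59, adjusted p = 0.013) and cyclic loess (0.53, adjusted p = 0.029), and without caerulein replicate 4 (0.52, adjusted p = 0.041). Fosb minus Fosl2 changed by -0.57 (exact permutation p = 0.0022, adjusted p = 0.0039), but not past the threshold after repeated quantile normalisation (-0.24, adjusted p = 0.16) or cyclic loess (-0.30, adjusted p = 0.053).

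**Figure D4:**
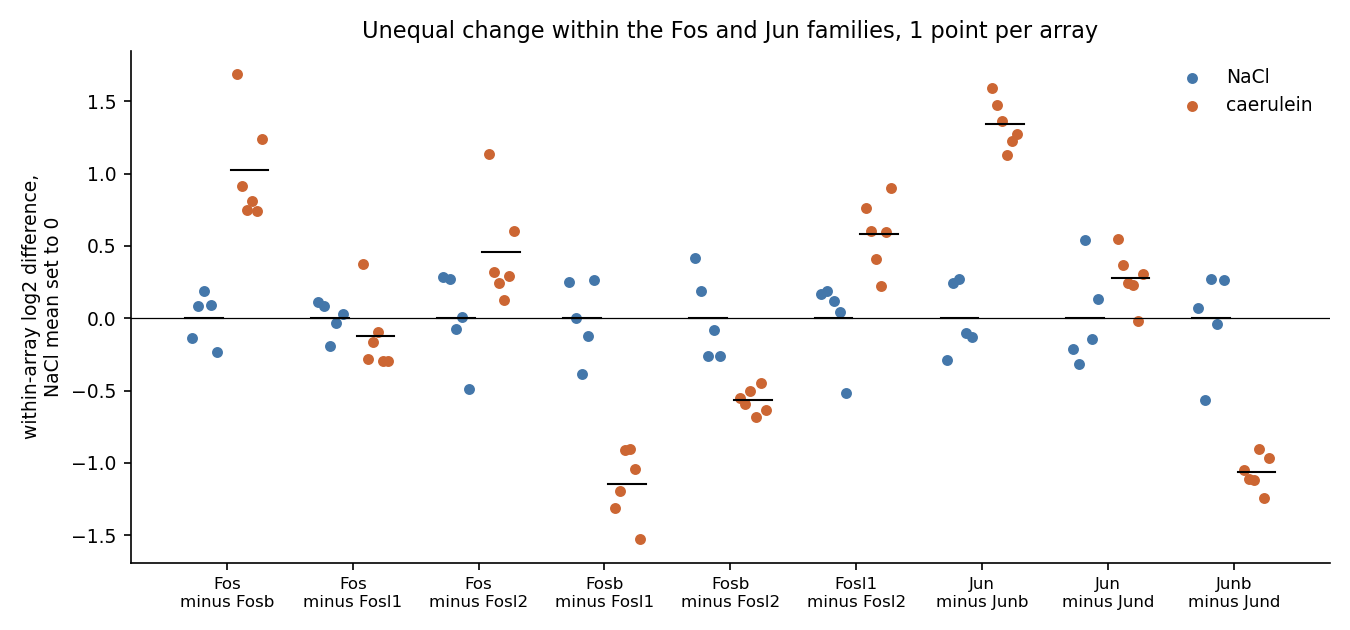
Within-array log2 difference between members of the Fos family (6 pairs) and the Jun family (3 pairs), shifted so that the NaCl mean is 0; each point is an array and lines are group means. NaCl and caerulein arrays do not overlap for Fos minus Fosb, Fosb minus Fosl1, Fosb minus Fosl2, Fosl1 minus Fosl2, Jun minus Junb and Junb minus Jund.

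Maff encodes a small Maf protein that pairs with NRF2 and other cap'n'collar factors. NaCl values were 5.74, 5.46, 5.98, 5.59 and 5.66, and the caerulein arrays spanned 5.85 to 6.59 with a median of 6.10. NaCl replicate 3 overlapped the caerulein range, and caerulein replicate 1 was the highest array. The difference was 0.46 (SE 0.13, limma adjusted p = 0.013), or 1.37-fold. With an equal reference gene mean it was -0.30 (adjusted p = 0.069).

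Batf encodes a factor best known from T and B lymphocytes, where it pairs with Jun proteins. Its NaCl values were 6.07, 5.93, 6.16, 5.86 and 6.06, and the caerulein values ran from 5.72 through 5.82 to 6.00. The groups overlapped and the difference of -0.18 (95% interval -0.34 to -0.02) did not pass (limma adjusted p = 0.068). It passed with equal 75th percentiles (-0.24, adjusted p = 0.017), with an equal reference gene mean (-0.93, adjusted p = 8.0e-07), with the dimmer probe sets left out (adjusted p = 0.0495), and without NaCl replicate 4 (adjusted p = 0.037) or caerulein replicate 4 (adjusted p = 0.038). Of 6 measured T cell markers, 4 were lower and 0 higher, and of 4 B cell markers 2 were lower and 0 higher. Over all named genes 34.3% were lower and 20.3% higher. The numbers lower were 2 and 0 after repeated quantile normalisation (23.4% of named genes lower) and 1 and 0 after cyclic loess (18.2%). They were 6 and 4 with an equal reference gene mean (86.5%). The mean log2 level of the T cell list was 5.04 to 5.15 per NaCl array and 4.85 to 5.00 per caerulein array. The B cell list ran from 5.02 to 5.24 and from 4.64 to 5.14. The part of lymphocytes in the Batf values was not tested.

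Whole pancreas holds several cell types, and fewer cells of a type cannot be told apart from less RNA per cell in these data. The acinar markers had mean log2 levels of 12.69 to 12.90 per NaCl array and 12.15 to 12.27 per caerulein array. Of 9 measured acinar markers 3 were lower and 0 higher, close to the 34.3% of named genes called lower, or 8 and 0 with equal 75th percentiles, where 45.9% of named genes were lower. The 3 were Bhlha15, Rbpjl and the digestive enzyme gene Ctrc, at -1.39 or below. The 6 others, all digestive enzyme genes too, were at -0.12 to -0.04, and the list median was -0.12. NaCl means of these 6 ran from 14.25 (Cel) to 14.64 (Cpa1), where the highest value on any array was 15.05. How far values this high can follow a fall was not tested. In 7 of the 9 every caerulein array lay below every NaCl array, as in 4101 of 19938 named genes. Macrophage markers, whose cells also express AP-1 genes, were higher for 5 of 7 (named genes 20.3%). Array means were 5.54 to 5.72 in NaCl and 6.42 to 7.31 in caerulein. Differences were 2.31 for Cd14, 2.01 for Lyz2, 1.59 for Cd68 and 1.51 for Itgam, the list median. Adgre1 was at 0.46, and Mrc1 (0.33) and Csf1r (0.16) were not called. Duct markers were higher for 4 of 5 (5.85 to 6.03 against 7.26 to 7.63). The keratin genes Krt19 (4.39) and Krt7 (1.94) had the largest differences, the other 3 were at 0.29 to 0.44, and the list median was 0.44. Neutrophil markers were higher for 0 of 8 and lower for 1, with array means of 4.65 to 4.80 and 4.52 to 5.08. After repeated quantile normalisation or cyclic loess 1 was higher and 0 lower, the higher one being S100a8 (0.48, limma adjusted p = 0.033, and 0.53, adjusted p = 0.024). Endothelial markers were higher for 2 of 5 and lower for 0, and stellate and fibroblast markers were higher for 1 of 6 and lower for 0. The counts with an equal reference gene mean were 9 lower for acinar, 4 higher and 3 lower for macrophage, 2 higher and 2 lower for duct, and 7 lower for neutrophil markers, where 5.96% of named genes were higher and 86.5% lower. With that mean 5 endothelial and 5 stellate and fibroblast markers were lower and 0 higher. Detection calls were not used, so which dim probe sets lie above background is unknown. The part of these cells in the AP-1 values was not tested.

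Caerulein arrays differed among themselves in some members. For Jun, Junb, Jund and Atf3, caerulein replicates 1 to 3 all lay above replicates 4 to 6, which held for 8.29% of named genes. Jun averaged 8.95 in replicates 1 to 3 and 8.43 in replicates 4 to 6, and Atf3 10.54 and 10.09. Fos, Fosb, Fosl1, Fosl2, Batf and Maff overlapped between these replicates. Caerulein replicate 1 was the highest of the 6 caerulein arrays for 6 of the 10 members, against 22.0% of named genes, and the lowest for Fosb and Fosl2. Nothing in the labels sets replicates 1 to 3 apart. With replicates 4 to 6 left out the difference of Jun was 1.95, with replicates 1 to 3 left out it was 1.43, and both passed (limma adjusted p = 4.6e-06 each). Atf3 was 4.42 and 3.96 in these fits. Junb was 0.47 (limma adjusted p = 0.0082) without replicates 4 to 6, and 0.21 without replicates 1 to 3, no longer called (adjusted p = 0.099).

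Fos and Batf lie on chromosome 12 in one stretch that also holds Jdp2, a repressor of AP-1, with no other protein-coding gene between them in the RefSeq table. Fos was higher by 0.78, whereas Jdp2 was at -0.16 (limma adjusted p = 0.10) and Batf at -0.18 (adjusted p = 0.068). The test of the difference between these neighbours was not run.

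The genes whose arrays resembled the 3 members with the largest differences most closely were found by the root mean square distance over the 11 arrays, each gene centred on its own NaCl mean. Nearest to Atf3 were Emp1, an epithelial membrane protein gene (distance 0.21, difference 4.17), the keratin gene Krt8 (0.25, difference 4.34) and the inositol trisphosphate kinase gene Itpkc (0.26, difference 4.42). Jun was closest to Tead1, a DNA-binding partner of YAP (distance 0.15, difference 1.64), Tbc1d9 (0.16, difference 1.62) and Rgs2, a regulator of G protein signalling (0.17, difference 1.86). For Jund these were the RNA-binding protein gene Celf1 (distance 0.12, difference 1.32), the p120 catenin gene Ctnnd1 (0.13, difference 1.43) and Rabgef1 (0.14, difference 1.38). This distance follows the size of the difference and says nothing of shared control.

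The genes around AP-1 were read from 6 lists with 80 entries, of which 68 were measured. In all 40 were higher and 6 lower (limma, adjusted p under 0.05), beside 20.3% and 34.3% of named genes, and the median difference was 0.44. With an equal reference gene mean 20 were higher and 35 lower, beside 5.96% and 86.5% of named genes. After repeated quantile normalisation 37 were higher and 11 lower, beside 19.3% and 23.4% of named genes. The same shares of named genes stand beside the counts of each list below.

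**Figure D5:**
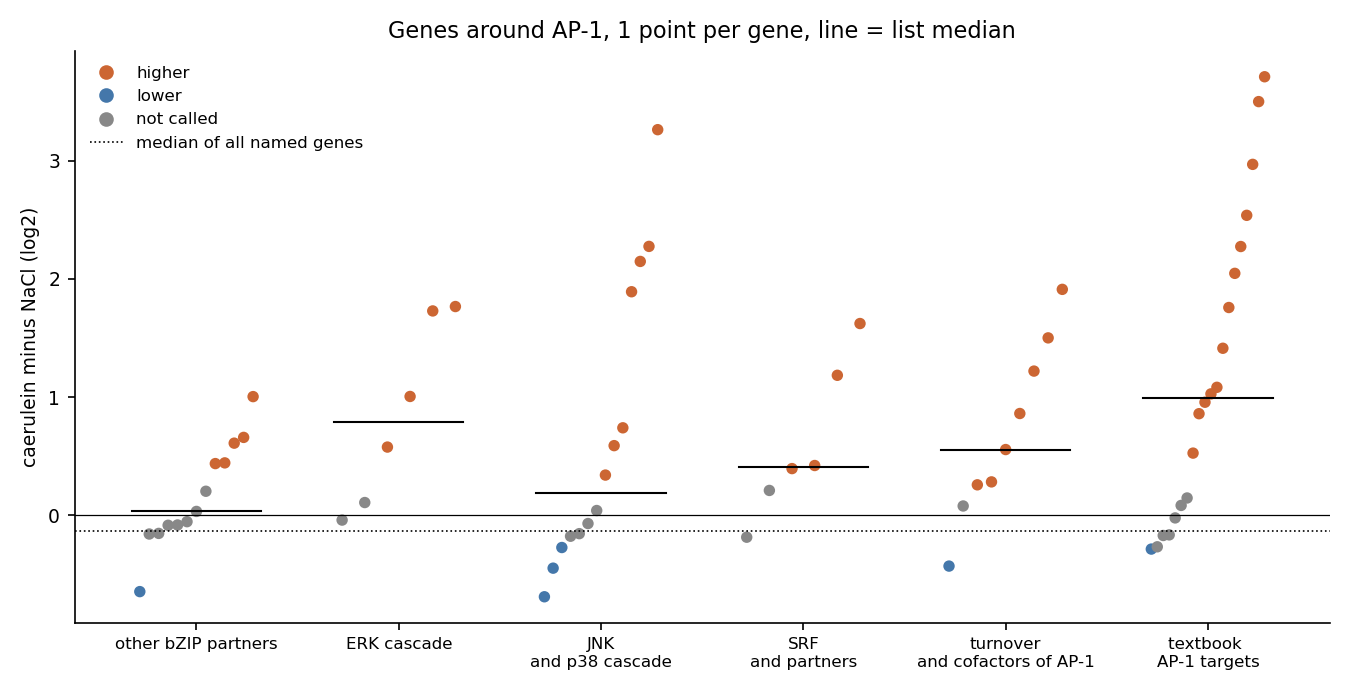
Caerulein minus NaCl (log2, vertical axis) for the measured genes of 6 lists around AP-1, 1 point per gene, coloured by call; lines are list medians and the dotted line is the median of all named genes. The list medians run from 0.03 for other bZIP partners to 0.99 for textbook AP-1 targets.

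Among other bZIP genes that can pair with AP-1 proteins, 5 of 13 were higher and 1 lower, with a median difference of 0.03. These counts were 3 and 3 after repeated quantile normalisation, where 19.3% of named genes were higher and 23.4% lower. They were 0 and 10 with an equal reference gene mean, where 5.96% were higher and 86.5% lower. Crem, a cAMP-responsive factor gene, rose by 1.00 (SE 0.13), the small Maf gene Mafk by 0.66 and Atf2, a kinase-activated partner of c-Jun, by 0.61. None of these 3 was called with an equal reference gene mean (limma adjusted p = 0.12, 0.51 and 0.18). Mafa, a factor of beta cells, fell by 0.65 (SE 0.08, limma adjusted p = 3.0e-05) and was lower under the 4 rescalings too. Of 5 measured islet markers 0 were higher and 0 lower, or 0 and 3 with an equal reference gene mean. The part of islet cells in the Mafa values was not tested. Of the ERK cascade, which links receptors to Fos transcription, 4 of 6 measured genes were higher and 0 lower, or 4 and 2 after repeated quantile normalisation and 3 and 2 with an equal reference gene mean. The GTPase gene Nras rose by 1.77, the kinase gene Rps6ka3 by 1.73 and the ERK kinase gene Map2k1 by 1.01.

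Genes of the JNK and p38 cascades, which phosphorylate c-Jun and ATF2, split into 7 higher and 3 lower of 14 (median 0.19), or 4 and 8 with an equal reference gene mean. The p38 kinase activator Map2k3 went from log2 values of at most 7.09 in NaCl to at least 9.92 in caerulein, a difference of 3.26 (SE 0.10, limma adjusted p = 1.7e-10). The stress kinase gene Map3k5 rose by 2.28 and the p38 target kinase gene Mapkapk2 by 2.15. Lower were Map2k6, another p38 activator (-0.69), the JNK2 gene Mapk9 (-0.45) and the kinase gene Rps6ka5 (-0.27, limma adjusted p = 0.047). Rps6ka5 was not called after repeated quantile normalisation (adjusted p = 0.20) or cyclic loess (adjusted p = 0.25). Mean log2 levels in NaCl and caerulein were 4.69 and 4.00 for Map2k6 and 3.95 and 3.68 for Rps6ka5. These levels lay below every array median (5.20 or higher), and whether such dim probe sets lie above background is unknown. Of SRF and its partners 4 of 6 were higher and 0 lower, or 2 and 4 with an equal reference gene mean. As deposited, Srf was at 1.62, its partner gene Elk4 at 1.18 and the coactivator gene Mrtfa at 0.42. Mrtfa with an equal reference gene mean was at -0.34 (limma adjusted p = 0.0032).

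Of 9 genes for turnover and cofactors of AP-1, 7 were higher and 1 lower (median 0.56), or 3 and 4 with an equal reference gene mean. The pseudokinase gene Trib1 rose by 1.91, and Zfp36l1 and Zfp36, whose proteins destabilise AU-rich messenger RNAs, by 1.50 and 1.22. Fbxw7, a ubiquitin ligase subunit that targets c-Jun, fell by 0.43 (limma adjusted p = 0.0018). Of 20 measured textbook targets of AP-1, 13 were higher and 1 lower. Their median was 0.99, and 0.23 (8 higher, 7 lower) with an equal reference gene mean. The cornified envelope gene Sprr1a rose by 3.71 (SE 0.32), the adhesion receptor gene Cd44 by 3.50 (SE 0.07) and the haem oxygenase gene Hmox1 by 2.97 (SE 0.13). The 6 targets not called were Mmp9, Mmp12, Mmp13, Ccnd1, Il6 and Plau, at -0.27 to 0.15. The part of AP-1 in these differences was not tested. Mmp10, a matrix metalloproteinase gene, was called at -0.29 (limma adjusted p = 0.013). That call ended with repeated quantile normalisation (-0.15, adjusted p = 0.18) and with cyclic loess (-0.10, adjusted p = 0.34). Its mean log2 levels, 4.90 in NaCl and 4.61 in caerulein, lay below every array median (5.20 or higher), so it may not be above background.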

How the data were processed

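RNA of whole pancreas from 11 samples (5 NaCl, 6 caerulein) was hybridised to arrays. The values deposited by the authors are on a log2 scale, with a single value for each probe set on each array. RMA and the R packages oligo and limma made them, per the submitters' processing notes, with no versions stated. Array medians were 5.35 to 5.40 in NaCl and 5.20 to 5.25 in caerulein. No 2 arrays were identical, detection calls were not used, and precision is limited by how many arrays there are.

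The members, gene lists, alternatives and the rule for named genes were chosen with earlier results of these data known. Named were all members, from each list around AP-1 the 3 largest rises and 3 largest falls past the threshold, and the 3 nearest genes by profile (predicted and RNA genes left out). Also named were the textbook targets that were not called, and some marker, reference and neighbouring genes. Of 35556 probe sets, 21789 carried 1 symbol in the platform annotation, 1621 several, and 12146 were not listed there. A gene was read through its single-symbol probe set with the highest mean. Member symbols matched RefSeq by Entrez identifier for all 10.

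The 2 groups were compared with limma 3.58.1 in R 4.3.3 (lmFit, eBayes, no covariates, two-sided, Benjamini-Hochberg over all probe sets, threshold 0.05). Adjusted p-values of single genes come from limma. Within-family differences used an exact permutation test over arrays. The fit was tested on simulated data with independent normal noise and few shifted probe sets. These arrays differ from that setting, as 44.2% of their probe sets were called. The simulation is thus a check of the computation and does not bear on the calls. Alternatives were another variance prior, array weights, 4 rescalings, a filter on dim probe sets, a replicate block, leaving out arrays, and a 2-fold limit.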

Additional observations from a re-analysis of the deposited data

How the results depend on the processing

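The rises of Atf3, Jun and Jund kept their direction and call in all 22 refits, the rise of Junb in 18 and the fall of Fosb in 11. Those of Fos, Fosl1 and Maff did so in 21, the exception being the equal reference gene mean. With that mean 3 members were higher and 4 lower (as deposited 7 and 1), the genes around AP-1 were 20 higher and 35 lower (as deposited 40 and 6), and the differences of Fosl2, Junb and Maff turned to -0.43, -0.41 and -0.30. With array quality weights 8 members were higher, Fosl2 being added, beside 20.3% of named genes. The same 8 were higher without the dimmer probe sets, beside 33.9% of the named genes kept. The number of lower members was 2 with equal 75th percentiles and without the dimmer probe sets, beside 45.9% and 38.2% of named genes. It was 0 after repeated quantile normalisation, cyclic loess and the replicate block, beside 23.4%, 18.2% and 27.5% of named genes. With caerulein replicates 1 to 3 or 4 to 6 left out it was also 0, beside 24.5% and 22.1%. These were 2 settings chosen after seeing the data. Leaving out 1 array gave 7 to 8 higher and 0 to 2 lower members, beside 19.4% to 20.1% and 30% to 32.6% of named genes. Those fits gave 38 to 40 higher and 5 to 6 lower genes around AP-1, and there were 6 to 7 unequal pairs of 9. Lower genes around AP-1 numbered 11 with equal 75th percentiles and 11 after repeated quantile normalisation, beside 45.9% and 23.4% of named genes. Without the dimmer probe sets they numbered 3, as that filter took Mmp10, Map2k6 and Rps6ka5 out of the count. With a 2-fold limit 3 members were higher and 0 lower, and 23 genes around AP-1 higher and 0 lower, which follows from the stricter rule. The change of Fos minus Fosl1 was 0.030 after repeated quantile normalisation (-0.13 as deposited). The cause of the other shifts was not tested.

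Over all probe sets the share of calls that were lower was 62.9% as deposited, 95.0% with an equal reference gene mean, 72.1% with equal 75th percentiles and 46.4% after cyclic loess. The labels do not say whether arrays with the same replicate number share a batch. Deviations of same-numbered arrays from their group means correlated at -0.05 to 0.06, which cannot settle that question. With the replicate block 7 members were higher and 0 lower, beside 18.8% and 27.5% of named genes. Fosb was the call that was lost (-0.22, limma adjusted p = 0.15). In that fit caerulein replicate 6 has no partner and so adds nothing to the difference. Averaging several probe sets changed no member, as each has 1.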
